A study of Mus musculus with 38 samples.

Results

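The small RNA of mouse sperm was examined for fragments of the tRNAs that carry the sulfur- and selenium-containing amino acids, namely methionine, cysteine and selenocysteine. Members were taken by name from the rows for tRNA reads that matched the genome, as all rows of a tRNA for Met, initiator Met, Cys, selenocysteine (SeC) or a suppressor (Sup). This gave 5 of the 54 tRNA isoacceptors listed, an isoacceptor being the set of tRNAs with 1 amino acid and 1 anticodon: tRNA-Met-CAT, tRNA-Cys-GCA, tRNA-Cys-ACA, tRNA-SeC-TCA and tRNA-Sup-TTA. No row for an initiator Met tRNA was listed apart from tRNA-Met-CAT. The libraries came from mature sperm of 38 inbred male C57BL/6J mice aged 11 to 13 weeks, killed after an overnight fast. Dams were fed a control diet (CT, 20% protein) or a protein-restricted diet (PR, 8% protein) through gestation and suckling up to weaning at 21 days, and their sons then ate CT or PR. By the study's list of components, PR also held less fat, methionine, cysteine and choline, and more sugar. Protein was thus not the only difference between the diets. The groups were CTCT (CT throughout, n = 10), CTPR (CT, then PR, n = 9), PRCT (PR, then CT, n = 9) and PRPR (PR throughout, n = 10), from 21 litters. For littermates 47I1 and 47I2 the labels of the deposited samples and the study's list of mice give opposite groups. The labels were followed here (47I1 as CTCT, 47I2 as CTPR), and values under the other grouping are given where they move a result.

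Methionyl-tRNA comes in 2 kinds in animal cells, an initiator that starts every protein and an elongator that places methionine within it. Both read the codon AUG. Cysteine tRNA supplies the thiol residue of disulfide bonds and iron-sulfur sites, and sperm chromatin is packed by cysteine-rich protamines. Selenocysteine tRNA is unusual among tRNAs in its long acceptor and variable arms, is charged first with serine, and reads a UGA codon that elsewhere ends translation. Selenoproteins include the glutathione peroxidase that forms much of the mitochondrial capsule of the sperm midpiece. Mature sperm carry many tRNA fragments, largely from the 5′ side of the tRNA, acquired in part from the epididymis.

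Gene copies with the anticodons of 2 members could be placed. In the RefSeq annotation of GRCm38.p6, the build the study's reads were mapped to (mm10), 16 of 430 tRNA genes are Met-CAT and 57 are Cys-GCA. Of the Met genes, 11 lie on chromosome 13 between positions 21167604 and 23530419, 3 on chromosome 15, 1 on chromosome 3 and 1 on chromosome 8, and all are 72 or 73 bases long. Of the Cys-GCA genes, 49 lie on chromosome 6 between 47978997 and 48363603, a span of 384607 bases, with 5 on chromosome 11, 2 on chromosome 9 and 1 on chromosome 17. Each of these 2 sums is listed by anticodon, and the shares of single copies are not given. Whether the database behind the counts holds the same gene copies was not checked. In the reference tables, tRNA-SeC-TCA and tRNA-Cys-ACA were not matched.

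Reads matching the genome ranged from 4465281 to 7612603 per mouse, and summed tRNA isoacceptor reads from 175955 to 1873087. tRNA made up 9.57% ± 4.08 (SD, n = 10) of genome-matched reads in CTCT, 15.9% ± 5.98 (n = 9) in CTPR, 12.2% ± 6.69 (n = 9) in PRCT and 11.7% ± 4.32 (n = 10) in PRPR. Each member is therefore given on 2 scales, as reads per 1000000 genome-matched reads (RPM, a level that moves with the tRNA content of the library) and as a percentage of all tRNA isoacceptor reads (its share among tRNAs). In bulk RNA, fewer cells and less RNA per cell cannot be told apart. Summed miRNA markers of sperm and spermatogenic cells, 8 of 9 of them listed (mir-449b was not), had group medians of 417 (CTCT), 1019 (CTPR), 563 (PRCT) and 472.5 (PRPR) RPM. All 5 epididymal epithelium markers were listed, with medians of 525.5, 1044, 392 and 451 in the same order, and all 4 smooth muscle markers, with 1549, 2606, 1270 and 1153. The 3 red blood cell markers had medians of 6.54 to 8.52 and the 3 leukocyte markers 13.4 to 31.4.

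Of the 5 members, 3 were abundant in every mouse and 2 were close to the limit of detection. tRNA-Met-CAT had 192734 reads over all mice (1645 to 16145 per mouse), tRNA-SeC-TCA 165636 (2059 to 7863) and tRNA-Cys-GCA 51810 (145 to 5182). By mean share of tRNA reads they ranked 12, 11 and 15 of 54, far below tRNA-Gly-GCC, the most abundant isoacceptor at 51.1%. tRNA-Cys-ACA was listed in 7 mice with 20 reads in all. tRNA-Sup-TTA, a suppressor whose anticodon pairs with a stop codon, had 1 read in 1 CTPR mouse and 1 read in 1 PRPR mouse. Its absence elsewhere allows up to 3 reads per group, or 0.0488 RPM in CTCT and 0.0514 in PRCT, counting error only.

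The level of tRNA-Met-CAT was highest in CTPR. Its lowest, median and highest RPM were 257, 571 and 1224 in CTCT and 363, 1129 and 1565 in CTPR. In PRCT they were 286, 631 and 2121, and in PRPR 401, 625 and 1295. The means were 609.7 ± 284 (SD, n = 10), 1075 ± 406 (n = 9), 762 ± 565 (n = 9) and 738 ± 324 (n = 10) in that order, and all 4 groups overlapped. The PRCT maximum was mouse 59L1, whose library also had the most tRNA (24.6% of its genome-matched reads).

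tRNA-Cys-GCA had the lowest level of the abundant members and the widest range as a fold, 33.8-fold over all 38 mice (19.8-fold without CTCT mouse 07C3, which had 145 reads). RPM ran from 22.5 through a median of 159 to 331 in CTCT, and from 76.1 through 306 to 759 in CTPR. They ran from 38.3 through 160 to 338 in PRCT and from 54.0 through 166 to 368 in PRPR. Group means were 169 ± 107 (SD, n = 10), 348 ± 236 (n = 9), 156 ± 104 (n = 9) and 178 ± 98.0 (n = 10). Only CTPR held mice above 368, yet its lower mice lay within the range of every other group.

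tRNA-SeC-TCA varied least in level. Its RPM values were 319, 565 and 1036 (lowest, median and highest) in CTCT, 436, 819 and 1149 in CTPR, 350, 549 and 805 in PRCT, and 409, 828 and 1038 in PRPR. The means were 630.0 ± 260.1 (SD, n = 10), 810.0 ± 219 (n = 9), 593 ± 159 (n = 9) and 745 ± 234 (n = 10). No group stood clear of another. The plot of RPM in each mouse shows this overlap for the 3 abundant members.

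**Figure D1:**
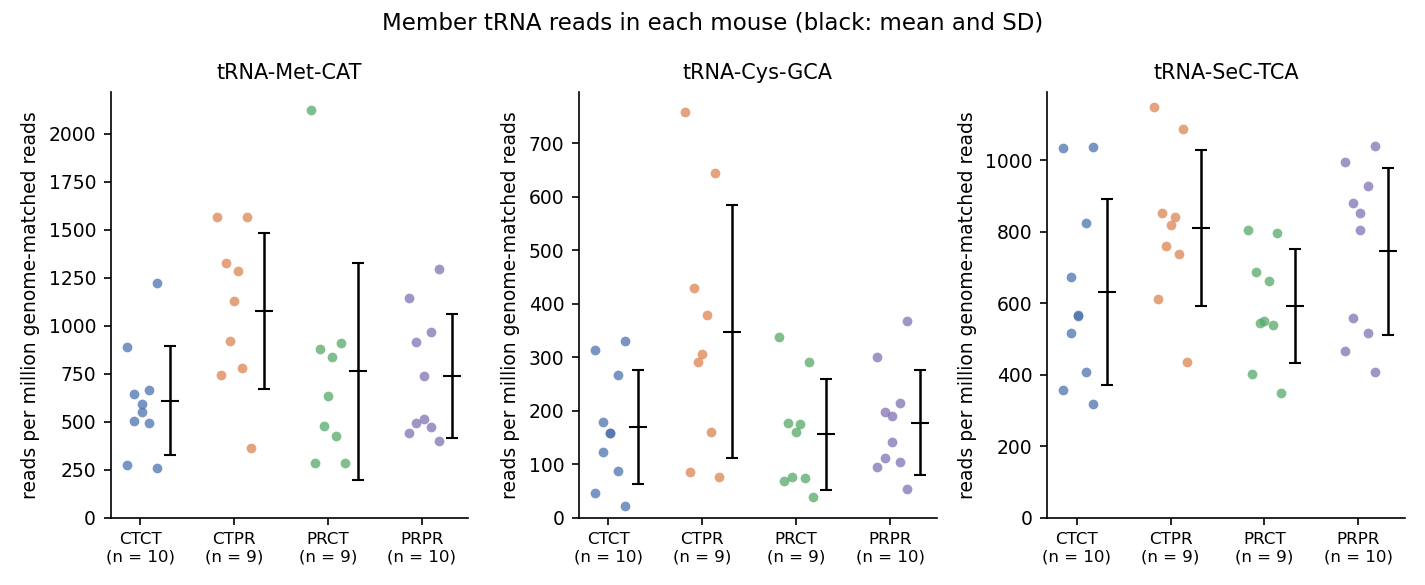
RPM, reads per 1000000 genome-matched reads (y axis, linear from 0), of the 3 abundant members in each of 38 mice by diet group (x axis), 1 point per mouse, with the mean and SD in black. CTPR had the highest mean in all 3 panels (1075, 348 and 810.0), and the groups overlapped; the highest tRNA-Met-CAT point, 2121, is the PRCT mouse 59L1.

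Comparing CTPR with CTCT asks how sperm tRNA fragments differ with the PR diet after weaning in sons of control-fed dams. The fitted level was 1.76-fold higher in CTPR for tRNA-Met-CAT (log2 fold change 0.82 ± 0.33, SE, edgeR quasi-likelihood test, P = 0.0180) and 2.06-fold higher for tRNA-Cys-GCA (1.04 ± 0.44, P = 0.0228). For tRNA-SeC-TCA it was 0.36 ± 0.25 (P = 0.149). After Benjamini-Hochberg adjustment over 54 isoacceptors, the adjusted P was 0.112 for both tRNA-Met-CAT and tRNA-Cys-GCA and 0.265 for tRNA-SeC-TCA. No isoacceptor passed an adjusted P of 0.05 (0% of 54), whereas 18 had an unadjusted P under 0.05, all higher in CTPR (33.3%). DESeq2 gave the same 2 counts, 0 and 18. Among the 18 were tRNA-Met-CAT, tRNA-Cys-GCA and the rare tRNA-Cys-ACA (14 reads in CTPR against 3 in CTCT, adjusted P = 0.123 in edgeR). The median log2 fold change of all 54 isoacceptors was 0.70, so the values of tRNA-Met-CAT and tRNA-Cys-GCA lay close to that of tRNAs as a whole. In the other amino acid lists, 8 of 20 isoacceptors of other essential amino acids and 7 of 28 of non-essential amino acids were higher at P under 0.05 and 0 were lower, with medians of 0.66 and 0.71. The unadjusted P of tRNA-Met-CAT was 0.0566 and that of tRNA-Cys-GCA 0.0528 in edgeR with the sons of litter 47I exchanged, and 0.0553 and 0.0521 with mice 07C3, 08G5, 31A3 and 35F2 left out. In 08G5, 31A3 and 35F2 the deposited class totals of genome-matched reads differ from the total by over 100000 reads, and in 07C3 those of the other reads fall 75457 short. In PRCT mouse 31A3 the isoacceptor rows add to 469889 reads, against a deposited tRNA class total of 352056. Its shares and tRNA percentage were taken from the former.

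Set against other tRNAs, the CTPR difference was smaller for tRNA-Met-CAT and tRNA-Cys-GCA and of opposite sign for tRNA-SeC-TCA. The share of tRNA-Met-CAT was 0.667% ± 0.203 (SD, n = 10) in CTCT and 0.706% ± 0.226 (n = 9) in CTPR (log2 fold change 0.08, 95% interval −0.27 to 0.44, edgeR adjusted P = 0.864). tRNA-Cys-GCA took 0.179% ± 0.105 and 0.228% ± 0.157 (0.35, −0.30 to 1.00, adjusted P = 0.655). tRNA-SeC-TCA took 0.907% ± 1.02 and 0.627% ± 0.454 (−0.53, −1.32 to 0.26, adjusted P = 0.655). Its sign rested on 1 library: without the CTCT mouse 09H7, at 3.76%, the log2 fold change was 0.09. On this scale 0 of 54 isoacceptors passed adjustment and 2 had P under 0.05 (3.70%), none of them a member, with the same counts in DESeq2. When read depth was scaled by TMM or by DESeq2 size factors over the isoacceptors, the tRNA-Met-CAT difference was 0.03 and 0.04, and that of tRNA-Cys-GCA 0.31 and 0.34, with P from 0.196 to 0.784. With miRNA reads as the library size, the differences were 0.43 for tRNA-Met-CAT and 0.40 for tRNA-Cys-GCA. The sperm, epithelial, smooth muscle and leukocyte marker sums were also highest in CTPR, and over 38 mice the level of tRNA-Cys-GCA had a Spearman correlation of 0.91 with the sperm markers, 0.79 with the epithelial, 0.84 with the smooth muscle, 0.87 with the leukocyte and 0.57 with the red blood cell markers. For tRNA-Met-CAT these were 0.86, 0.65, 0.72, 0.85 and 0.42, and for tRNA-SeC-TCA 0.25, 0.08, 0.10, 0.22 and 0.09. As shares of tRNA reads, the correlations with the 5 lists ran from 0.60 to 0.69 for tRNA-Cys-GCA, from 0.37 to 0.42 for tRNA-Met-CAT and from −0.46 to −0.21 for tRNA-SeC-TCA. All of these values share a library and its depth, and the part of other cells in the CTPR levels was not tested. The study reported high sperm purity, from DNA methylation at imprinting control regions in all groups and from representative RNA traces without ribosomal peaks.

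**Figure D2:**
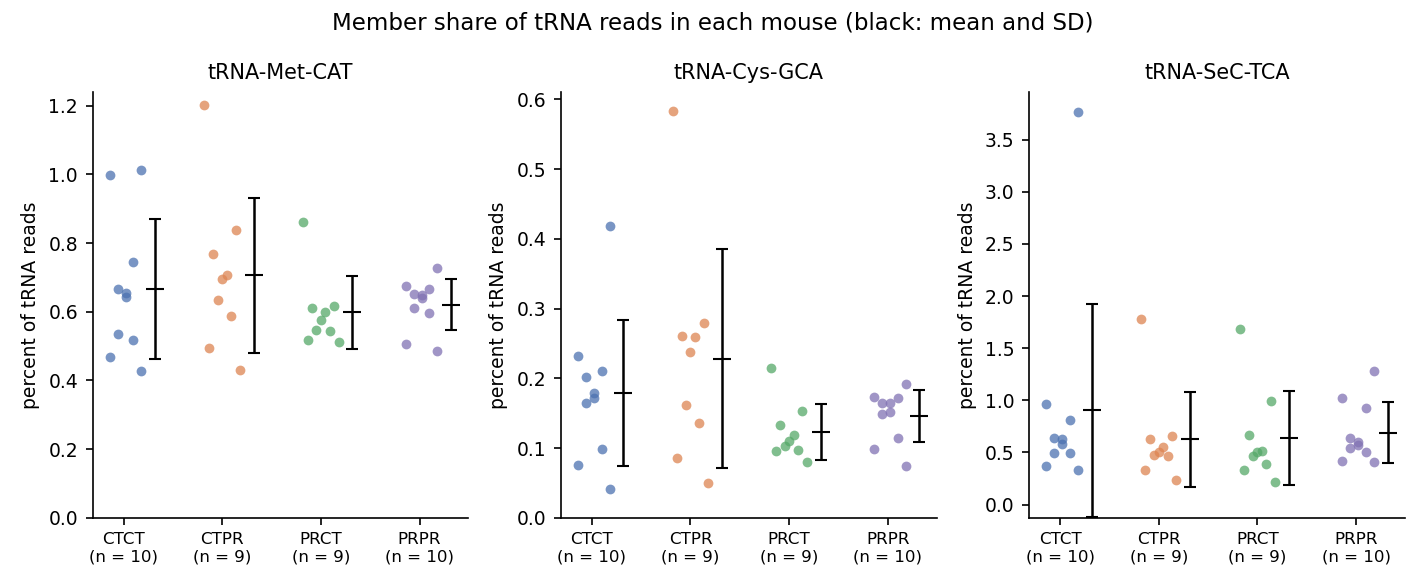
Percentage of all tRNA isoacceptor reads (y axis, linear) taken by each abundant member in each of 38 mice by diet group (x axis), 1 point per mouse, with the mean and SD in black. Group means of tRNA-Met-CAT lay between 0.598% and 0.706%; mouse 09H7 at 3.76% and its littermate 09H5 at 1.78% lead the CTCT and CTPR groups for tRNA-SeC-TCA.

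Littermates gave a comparison within dams. In 8 litters with both a CTCT and a CTPR son, tRNA-Met-CAT was higher in the CTPR son in 7. The widest rises were in litter 57P, from 646 to 1564 RPM, and litter 35F, from 549 to 1328, and the 1 fall was in litter 45L, from 1224 to 779. The mean log2 difference was 0.63 ± 0.61 (SD, 8 litters, exact sign-flip permutation test, two-sided P = 0.0391, adjusted P = 0.201 over 54 isoacceptors). tRNA-Cys-GCA was higher in 6 of 8 litters (0.60 ± 0.68, exact permutation P = 0.0547, adjusted P = 0.201). tRNA-SeC-TCA was also higher in 6 of 8 (0.30 ± 0.50, exact permutation P = 0.148, adjusted P = 0.236). Of 54 isoacceptors 0 passed adjustment and 12 had P under 0.05 (22.2%). The smallest P that 8 litters allow is 0.00781. With the sons of litter 47I exchanged, tRNA-Met-CAT was higher in 6 of 8 litters (exact permutation P = 0.102). As a share of tRNA reads, each of the 3 members was higher in the CTPR son in 4 of 8 litters.

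Sons of restricted dams were compared in the same way. In 9 litters with both a PRCT and a PRPR son, tRNA-Met-CAT was higher in the PRPR son in 6, with a mean log2 difference of 0.05 ± 0.79 (SD, exact sign-flip permutation test, P = 0.848). Litter 59L fell furthest, from 2121 to 736 RPM. tRNA-Cys-GCA was higher in 6 of 9 (0.26 ± 0.64, exact permutation P = 0.262) and tRNA-SeC-TCA in 7 of 9 (0.28 ± 0.49, exact permutation P = 0.137). No isoacceptor passed adjustment and 2 of 54 had P under 0.05 (3.70%). The difference between the post-weaning effect after CT dams and after PR dams was 0.86 (95% interval −0.08 to 1.81) for tRNA-Met-CAT, 0.85 (−0.40 to 2.11) for tRNA-Cys-GCA and 0.03 (−0.67 to 0.74) for tRNA-SeC-TCA on the log2 scale of levels, with edgeR adjusted P of 0.552, 0.552 and 1.00. The effects after the 2 kinds of dam were thus not shown to differ (0 of 54 adjusted, 3 with P under 0.05, 5.56%, in edgeR, and 0 and 2 in DESeq2).

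**Figure D3:**
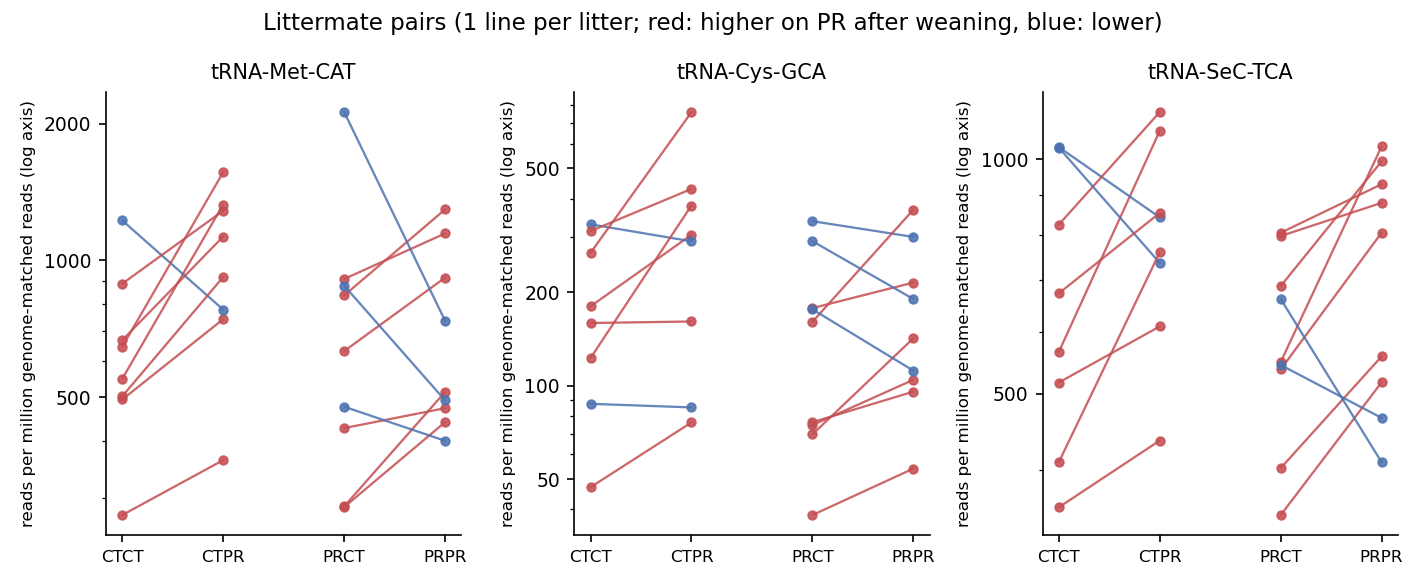
RPM, reads per 1000000 genome-matched reads (y axis, log scale), of each abundant member in littermate pairs, 8 litters of CT dams (CTCT and CTPR) and 9 of PR dams (PRCT and PRPR), 1 line per litter. Red lines rise and blue lines fall on the PR diet after weaning; tRNA-Met-CAT rose in 7 of 8 CT litters and in 6 of 9 PR litters.

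Restriction before weaning was compared with lifelong control diet in PRCT. The levels of the members differed from CTCT by log2 0.32 (95% interval −0.35 to 0.99) for tRNA-Met-CAT, −0.12 (−1.0 to 0.77) for tRNA-Cys-GCA and −0.09 (−0.59 to 0.41) for tRNA-SeC-TCA. Without mouse 59L1, the tRNA-Met-CAT value was −0.04. No isoacceptor passed adjustment in edgeR and 1 had P under 0.05 (1.85%), as also in DESeq2. The shares of tRNA reads in PRCT were 0.598% ± 0.106 (SD, n = 9), 0.123% ± 0.0405 and 0.641% ± 0.449 for the 3 members in that order. The matching log2 differences from CTCT were −0.16 (−0.51 to 0.20), −0.54 (−1.20 to 0.12) and −0.50 (−1.29 to 0.29). That of tRNA-SeC-TCA became 0.12 without mouse 09H7. Of 54 shares 0 passed adjustment and 8 had P under 0.05, all lower in PRCT (14.8%); DESeq2 counted 0 and 9. The 8 held 4 of the other essential and 4 of the non-essential list and no member, and the median over all isoacceptors was −0.32.

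No difference in level or share from the controls was called in mice restricted throughout life. In PRPR the levels differed from CTCT by log2 0.28 (95% interval −0.38 to 0.93), 0.08 (−0.79 to 0.94) and 0.24 (−0.25 to 0.73) for tRNA-Met-CAT, tRNA-Cys-GCA and tRNA-SeC-TCA. The shares were 0.621% ± 0.0749 (SD, n = 10), 0.146% ± 0.0374 and 0.691% ± 0.290, with log2 differences of −0.10 (−0.45 to 0.24), −0.30 (−0.94 to 0.34) and −0.39 (−1.16 to 0.38), the last becoming 0.23 without mouse 09H7. On either scale 0 of 54 isoacceptors passed adjustment or had P under 0.05 (0%), in edgeR and in DESeq2. Against PRCT, the levels in PRPR differed by −0.05 (−0.72 to 0.62), 0.19 (−0.70 to 1.08) and 0.33 (−0.17 to 0.83), with 0 of 54 isoacceptors adjusted or at P under 0.05 (0%) in either tool. Without mouse 59L1 the tRNA-Met-CAT value was 0.32. Each of these 6 intervals of a level reached a rise of over 1.5-fold.

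Among mice restricted after weaning, the level in PRPR differed from that in CTPR by log2 −0.54 (95% interval −1.21 to 0.13) for tRNA-Met-CAT, −0.97 (−1.86 to −0.08, P = 0.0337, edgeR adjusted P = 0.511) for tRNA-Cys-GCA and −0.12 (−0.62 to 0.38) for tRNA-SeC-TCA. Of 54 isoacceptors 4 had P under 0.05, all lower in PRPR (7.41%), and 1 passed adjustment (1.85%). That 1 was the rare member tRNA-Cys-ACA. In CTPR it had 14 reads in 4 of 9 mice, 5 each in 45L1 and 57P1, 3 in 53M4 and 1 in 47I2. In PRPR it had 0 reads in 10 mice, which allows up to 3 reads over the group or 0.0484 RPM. CTCT held 3 reads in 2 mice and PRCT 3 reads in 1 mouse. The CTPR level pooled over the group, 0.241 RPM, was 4.98 times that limit. This ratio carries neither the error of the 14 reads nor the spread between mice. The adjusted P was 0.0465 in edgeR but 0.582 in DESeq2, and the call was lost in 9 of 12 alternatives, one of which (a filter on low counts) removed the isoacceptor. An exact permutation test of RPM gave P = 0.0325, and 0.0686 without mouse 45L1. As a share of tRNA reads it did not pass adjustment (adjusted P = 0.179). A difference of 14 reads against 0 is close to the floor of detection.

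**Figure D4:**
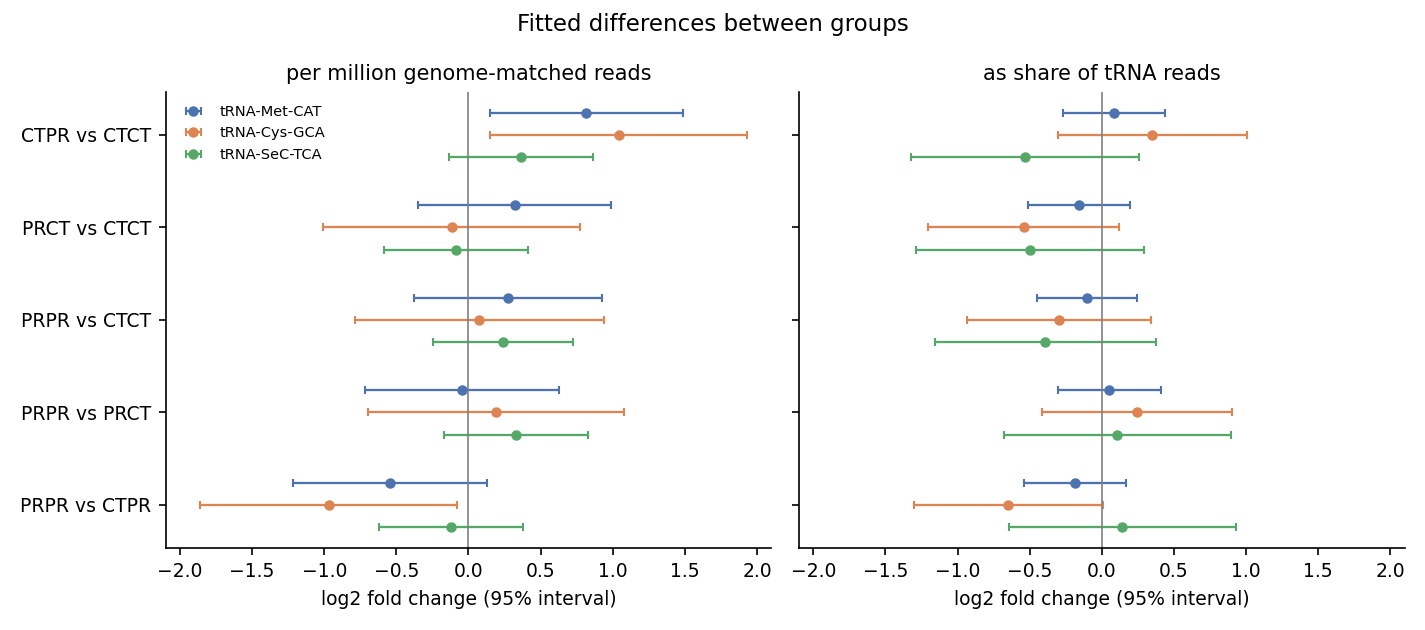
Fitted log2 fold changes with 95% intervals (x axis) of the 3 abundant members in 5 comparisons between diet groups (y axis), on the RPM scale (left) and as a share of tRNA reads (right), from edgeR. Intervals that clear 0 are those of tRNA-Met-CAT (0.15 to 1.49) and tRNA-Cys-GCA (0.15 to 1.93) in CTPR against CTCT and of tRNA-Cys-GCA in PRPR against CTPR (−1.86 to −0.08), all on the left; none had an adjusted P under 0.05.

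The members differed among themselves in how they followed the tRNA content of a library. Over 38 mice, the Spearman correlation with the tRNA percentage of genome-matched reads was 0.90 for the level of tRNA-Met-CAT, 0.72 for tRNA-Cys-GCA and 0.29 for tRNA-SeC-TCA. As a share of tRNA reads, the values were −0.04, 0.14 and −0.68. The summed tRNA reads are the denominator of the share and the numerator of the tRNA percentage, which by itself lowers these values. tRNA-SeC-TCA had the lowest coefficient of variation in RPM among the 26 isoacceptors with at least 100 reads in every mouse (33.2%) and the highest as a share (85%, a 17-fold range). The latter rested on mouse 09H7, without which the share had a coefficient of variation of 54.7%, rank 19 of 26, and an 8.06-fold range. tRNA-Met-CAT had a share that ranked 2 of 26 from the steadiest (25.2%, a 2.80-fold range) behind tRNA-Gly-GCC. Its RPM ranked 12 of 26 (53.6%, an 8.26-fold range). The share of tRNA-Cys-GCA had a 14.2-fold range (11.9-fold without 07C3). Littermates tended to deviate from their group means in the same direction, with Spearman correlations over 17 pairs of 0.59, 0.70 and 0.50 for the levels of tRNA-Met-CAT, tRNA-Cys-GCA and tRNA-SeC-TCA, and of 0.49, 0.42 and 0.72 for their shares. These correlations describe values that share libraries and depth, and were given no test.

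Most like tRNA-Met-CAT in share over the 38 mice were tRNA-Arg-CCT (Spearman 0.77), tRNA-Cys-GCA (0.72) and tRNA-Asn-GTT (0.69). For tRNA-Cys-GCA they were tRNA-Met-CAT, tRNA-Arg-CCT (0.69) and tRNA-Lys-TTT (0.67). tRNA-SeC-TCA followed a different set, tRNA-Gly-TCC (0.70), tRNA-Ser-AGA (0.68) and tRNA-Leu-CAA (0.64), with 0.27 for tRNA-Met-CAT, 0.02 for tRNA-Cys-GCA and −0.64 for tRNA-Gly-GCC. Shares of the same total are not free of each other, and tRNA-Gly-GCC held a mean of 51.1% of it. In RPM, the leading isoacceptors were tRNA-Arg-CCT (0.96), tRNA-Ala-TGC (0.92) and tRNA-Gly-GCC (0.91) for tRNA-Met-CAT, tRNA-Lys-CTT, tRNA-Lys-TTT and tRNA-Arg-CCT (each 0.91) for tRNA-Cys-GCA, and tRNA-Asn-GTT (0.64), tRNA-Ser-AGA (0.61) and tRNA-Gly-TCC (0.57) for tRNA-SeC-TCA.

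Fragments can come from either end of a tRNA or from within it, and the files list the reads of the 5′ end, the 3′ end and the CCA tail apart. In all tRNA reads together the 5′ end rows held a median of 85.5% (78.5% to 91.2% over 38 mice). For tRNA-Met-CAT the median was 5.57% (0.818% to 17%) and for tRNA-Cys-GCA 5.26% (0% to 11.8%), while 89.7% and 91.8% of their reads were in no end row. tRNA-SeC-TCA had a median of 55.5% (32.3% to 67.6%) in its 5′ end row and 43.6% in no end row. Its 3′ end row held 0.965% and its CCA row 0 reads in all 38 mice. The 95% Wilson interval of the lowest tRNA-SeC-TCA value, in CTPR mouse 49K3, was 30.6% to 34%, so counting error was small next to the spread between mice. For tRNA-Cys-GCA the lowest value, 0 of 145 reads in mouse 07C3, allowed up to 2.58%. End rows and isoacceptor rows did not assign shared reads in the same way. tRNA-Gly-GCC held a mean of 51.1% of tRNA reads, yet its median 5′ end share was 9.81%. The 85.5% of all tRNA reads is thus not comparable with the shares of single tRNAs. Whether reads in no end row were end reads listed under another tRNA was not tested. In 331 of 1822 values above 0, from 14 isoacceptors, the end rows added to more than the isoacceptor row, though in 0 of 123 member values. A 5′ end share is therefore compared only between groups for the same tRNA, over the 22 isoacceptors with at least 100 reads in every mouse and no such excess.

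The 5′ end share of tRNA-SeC-TCA was lower in PRCT than in CTCT. It ran from 47.0% through a median of 60.4% to 66.6% in CTCT, and from 42.2% through 47.9% to 57.4% in PRCT. In CTPR it ran from 32.3% through 57.3% to 67.6%, and in PRPR from 45.4% through 55.5% to 62.9%. In PRCT all 9 mice were below the CTCT median, although the groups overlapped because 3 CTCT mice lay under 53%. The mean fell by 9.78 percentage points, from 58.6% ± 7.15 (SD, n = 10) to 48.9% ± 4.68 (n = 9; two-sided exact permutation test, P = 0.00422, adjusted P = 0.0464 over 22 isoacceptors). Of the 22, 2 passed adjustment (9.09%), the other being tRNA-Gly-GCC, whose listed share fell from 12.9% to 8.33%, and 3 had P under 0.05 (13.6%). The rule for the 22 removed only tRNAs with an excess of end reads. A share made low by 5′ reads listed under another tRNA would remain, and whether this holds for tRNA-Gly-GCC was not tested. The tRNA-SeC-TCA difference stayed between −11.1 and −8.89 points when each of the 19 mice was left out in turn (exact permutation P from 0.00128 to 0.00878). The adjusted P rose above 0.05 in 16 of these 19, up to 0.0965. It stayed below 0.05 only without 07C3, 02A6 or 53M1, the 3 CTCT mice under 53%. Without mice 07C3, 35F2, 31A3 and 08G5 it was 0.0838. With litter 47I regrouped it was 0.0461.

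The other comparisons of the tRNA-SeC-TCA 5′ end share did not pass adjustment. PRPR had 53.9% ± 5.04 (SD, n = 10), 5.06 points above PRCT (exact permutation P = 0.0380, adjusted P = 0.513) and 4.71 points below CTCT (permutation P = 0.105, adjusted P = 0.446). CTPR had 56.2% ± 10.5 (n = 9), 2.48 points below CTCT (exact permutation P = 0.575). The percentages of tests called, of 22 isoacceptors, were 0% after adjustment in these 3 comparisons, and 4.55%, 9.09% and 13.6% at P under 0.05 in that order. These permutation tests took mice as independent, although PRPR and PRCT shared litters, as did CTPR and CTCT. No littermate test of 5′ end shares was run. Reads of tRNA-SeC-TCA in the 5′ end row were 379 ± 182 (SD) RPM in CTCT and 288 ± 78.2 in PRCT, and reads in no end row 247 ± 85.1 and 298 ± 86.6. The level of the 5′ end row by itself did not differ at this error (log2 −0.40, 95% interval −0.95 to 0.16, edgeR adjusted P = 0.913 over 185 tRNA rows, of which 0 were called, 0%, and 8 had P under 0.05, 4.32%, or 0 and 4 in DESeq2). The 5′ end share of all tRNA reads had means of 85.7% in CTCT and 85.5% in PRCT. Over 38 mice, the tRNA-SeC-TCA share had a Spearman correlation of −0.05 with genome-matched reads, −0.11 with the tRNA percentage and 0.29 with its own read number.

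For tRNA-Met-CAT and tRNA-Cys-GCA no difference in 5′ end share passed adjustment. Group means of tRNA-Met-CAT were 7.49% ± 3.89 (SD) in CTCT, 4.72% ± 3.55 in CTPR, 5.41% ± 3.81 in PRCT and 5.85% ± 1.99 in PRPR, with exact permutation P of 0.125 for CTPR and 0.262 for PRCT and a permutation P of 0.273 for PRPR against CTCT. Those of tRNA-Cys-GCA were 5.19% ± 2.75, 5.49% ± 3.43, 5.77% ± 1.88 and 6.37% ± 2.27, with P from 0.313 to 0.838 against CTCT in the same permutation tests. Reads of tRNA-Met-CAT in no end row were at 983 ± 391 RPM (SD) in CTPR and 535 ± 259 in CTCT, and its 5′ end row at 45.5 ± 31.2 and 43.7 ± 28.4. Its CCA row, with 14.6 ± 6.30 and 7.60 ± 4.44 RPM, had a log2 fold change of 0.94 ± 0.41 (SE, edgeR P = 0.0265, adjusted P = 0.204). The CCA row of tRNA-Cys-GCA held 0 reads in 9 CTPR mice, which allows up to 3, and 17 reads in CTCT, 14 of them in mouse 57P3 (edgeR P = 0.00563, adjusted P = 0.140). The 3′ end row of tRNA-SeC-TCA, at 4.44 ± 2.72 RPM in CTCT and 8.51 ± 4.46 in CTPR, had a log2 fold change of 0.94 ± 0.39 (SE, edgeR P = 0.0197, adjusted P = 0.174), among 34 of 185 rows with P under 0.05 (18.4%).

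**Figure D5:**
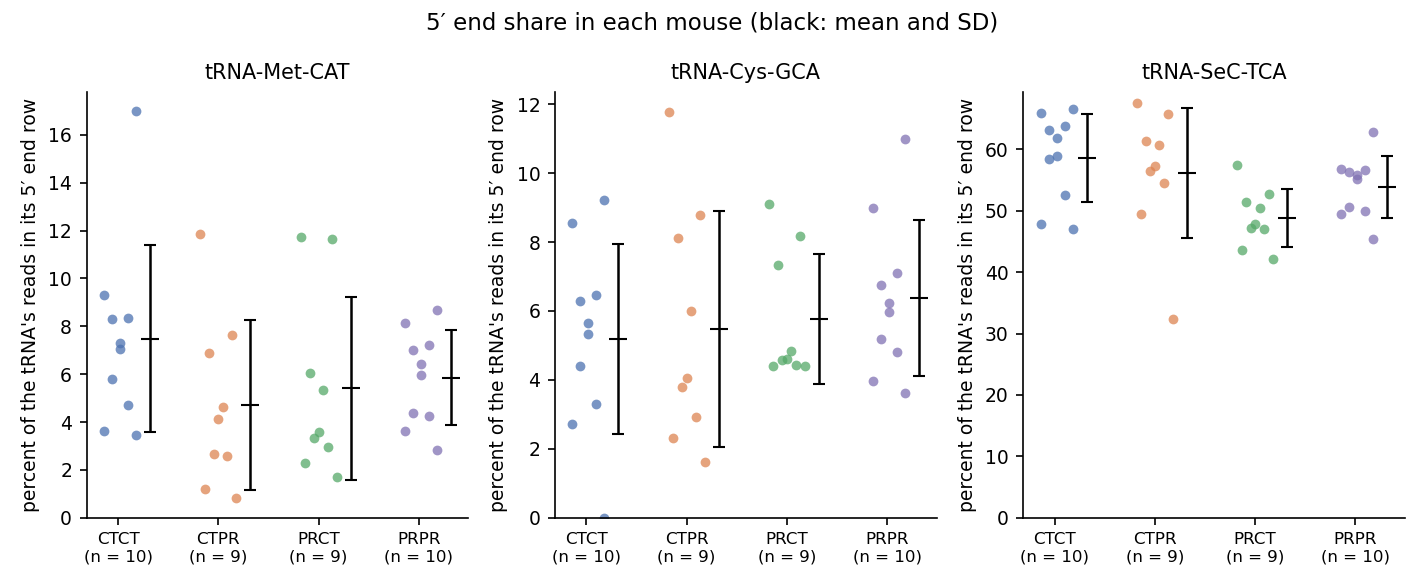
Percentage of each abundant member's reads that were in its 5′ end row (y axis, linear from 0) in each of 38 mice by diet group (x axis), 1 point per mouse, with the mean and SD in black. tRNA-SeC-TCA lay between 32.3% and 67.6%, with a mean of 48.9% in PRCT against 58.6% in CTCT, while the medians of tRNA-Met-CAT and tRNA-Cys-GCA were 5.57% and 5.26%.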

How the data were processed

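Per the labels and the study's methods, the authors annotated the small RNA reads of each mouse with SPORTS 1.0 against mm10 and several small RNA databases, and they deposited raw counts per class and class member for each mouse, neither normalised nor pooled. Versions of the databases are not given in the sources used here. Isoacceptors (54) and all tRNA rows (185) were fitted as counts by edgeR 4.0.16 under R 4.3.3, using glmQLFit and glmQLFTest with the 4 groups together, and with either genome-matched reads or summed tRNA isoacceptor reads as library size. P was adjusted by the Benjamini-Hochberg method. 5′ end shares were compared by permutation (exact, or 100000 resamples for PRPR against CTCT), and littermates by exact sign flips of log2 (RPM + 1) and of shares, in Python 3.11.15. Litters were taken from the mouse names and entered the edgeR fits only in the alternative with a litter block. They did not enter the permutation tests of 5′ end shares. Littermates share a dam, and over 26 isoacceptors the deviations of 12 of 17 pairs correlated above 0.1 (median 0.396). Every member was named, with the 3 isoacceptors most correlated with each, tRNA-Gly-GCC and the 2 amino acid lists. The members and lists were chosen with earlier results of these data known. In simulated counts for CTPR against CTCT, 10 of 54 isoacceptors were altered, and edgeR recovered 34% of those altered by log2 1 and 93.5% of those altered by log2 2. Only abundant isoacceptors were altered, and each isoacceptor was drawn independently. In the data 51 of 54 had a positive log2 fold change in CTPR against CTCT, so recovery there may differ. The spread between mice, not counting error, limited precision. Alternatives covered the tool (DESeq2 1.42.0), scaling, a low-count filter, a litter block, the grouping of litter 47I and mice left out. Chosen after seeing the data were leaving out 59L1 or 09H7, leaving each mouse or the 4 mice with discrepant class totals (07C3, 35F2, 31A3, 08G5) out of the 5′ end test, leaving 1 mouse out of each member's spread, and the permutation test of tRNA-Cys-ACA.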

Additional observations from a re-analysis of the deposited data

Results flagged for a closer look

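In 7 of 36 group values of the abundant members, 1 mouse stood apart from its group by Dixon's ratio. The critical values used pass about 1 group in 20 only where values are normal and groups independent. The 36 groups reuse the same libraries and normality was not tested, so the 7 cannot be set against that rate. For tRNA-Met-CAT, PRCT mouse 59L1 had 2121 RPM (group median 631) and 0.862% of tRNA reads (median 0.576%), and CTCT mouse 57P3 had 17% of its reads in the 5′ end row (median 7.17%). For tRNA-Cys-GCA, littermates 57P3 (CTCT) and 57P1 (CTPR) had 0.419% and 0.583% of tRNA reads, against group medians of 0.175% and 0.238%. For tRNA-SeC-TCA, littermates 09H7 (CTCT) and 09H5 (CTPR) had 3.76% and 1.78% of tRNA reads, against medians of 0.606% and 0.509%, while their levels of 1036 and 842 RPM did not stand apart. tRNA made up 2.75% and 4.72% of the genome-matched reads of these 2 libraries.

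Reads outside the comparisons were those ending in the CCA tail that did not match the genome, in which the tail is not encoded. tRNA-Met-CAT had 4984 of them (median 130 per mouse, 32 to 267) and tRNA-Cys-GCA 298 (median 6.5, 0 to 27), above the limit of 3 that a count of 0 allows, whereas tRNA-SeC-TCA had 2.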

How the results depend on the processing

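No difference in level or share of an abundant member passed adjustment under any alternative run. Of 478 recomputed differences of abundant members, 425 kept their direction and side of the threshold, 36 changed sign and 17 lost the call, all 17 in the tRNA-SeC-TCA 5′ end share. None of the 36 had P under 0.05 in the main analysis, and the causes were not tested. For levels, TMM gave log2 values for tRNA-SeC-TCA of −0.49 (CTPR against CTCT), −0.22 (PRPR against CTCT), 0.27 (PRPR against CTPR) and −0.49 (difference of post-weaning effects), for tRNA-Cys-GCA −0.16 (PRPR against CTCT) and −0.011 (PRPR against PRCT), and for tRNA-Met-CAT −0.056 (PRPR against CTCT). DESeq2 size factors gave −0.45, −0.18, 0.26 and −0.46 for the same 4 values of tRNA-SeC-TCA, and −0.14 for tRNA-Cys-GCA and −0.036 for tRNA-Met-CAT in PRPR against CTCT. miRNA reads as library size gave tRNA-Met-CAT −0.065, −0.048 and 0.017 (PRCT and PRPR against CTCT, PRPR against PRCT) and tRNA-SeC-TCA −0.0033 (PRPR against CTCT). Exchanging the sons of litter 47I gave tRNA-Cys-GCA −0.020 (PRPR against CTCT), tRNA-SeC-TCA −0.044 (difference of effects), tRNA-Met-CAT −0.051 (difference of effects in share) and −0.022 percentage points (littermate share), and left 11 isoacceptors with P under 0.05 in CTPR against CTCT. Without litter 47I tRNA-Cys-GCA was 0.029 (PRCT against CTCT) and tRNA-Met-CAT −0.0069 (difference of effects in share). Without 59L1 tRNA-Met-CAT was −0.042, 0.32 and −0.052 (PRCT against CTCT, PRPR against PRCT, difference of effects in share), and the tRNA-SeC-TCA share in PRPR against PRCT −0.0051. Without 09H7 tRNA-SeC-TCA was 0.019 (PRCT against CTCT, level) and 0.089, 0.12 and 0.23 (CTPR, PRCT and PRPR against CTCT, share), and tRNA-Cys-GCA −0.036 (PRPR against CTCT). With the mice 07C3, 35F2, 31A3 and 08G5 left out, the tRNA-SeC-TCA share in PRPR against PRCT was −0.0054, the differences of effects in share −0.067 (tRNA-Met-CAT) and −0.0093 (tRNA-Cys-GCA), the tRNA-SeC-TCA 5′ end share −9.98 points in PRCT against CTCT, and 7 isoacceptors had P under 0.05 in CTPR against CTCT.

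With litter as a block, tRNA-Met-CAT was 0.070 in PRPR against PRCT and 0.64 in CTPR against CTCT (edgeR adjusted P = 0.108). The block changed no other direction or call of an abundant member. It gave 21 isoacceptors with P under 0.05 in CTPR against CTCT, against 3 in the same litters without the block. The count of 1 isoacceptor called in PRPR against CTPR became 0 with DESeq2, without litter 47I, without the 4 mice, with the low-count filter, with only the 2 groups, with TMM, with DESeq2 size factors, with miRNA reads as library size and without 09H7. The number with P under 0.05 ran over all alternatives from 0 to 21 (main 18) for CTPR levels against CTCT, from 0 to 5 (main 2) for the shares, and from 5 to 10 (main 8) for PRCT shares. Leaving out each mouse gave −11.1 to −8.89 points for the tRNA-SeC-TCA 5′ end share. The main fit had 9 or 10 mice a group and took littermates as independent. Its intervals show that it could not resolve a change of about 1.5-fold in the level of tRNA-Met-CAT or tRNA-Cys-GCA.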
